A study of Mus musculus with 8 samples.

Results

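The homeobox genes Alx1, Alx4, Prrx1, Prrx2, Pitx1, Shox2, Barx1 and Barx2, which pattern the mesenchyme of the face and limbs, were followed in mouse malignant peripheral nerve sheath tumors (MPNST) with and without Polycomb repressive complex 2 (PRC2). They were taken by symbol from the deposited expression table, which held all 8 of them among 20943 genes, and all 8 were among the 20807 genes tested. RNA was measured by poly-A sequencing in 5 PRC2 wildtype and 3 PRC2 loss tumors. All mice carried Plp-CreERT together with the floxed alleles Nf1(f/f) and Cdkn2a(f/f), and all tumors are labelled Nf1(-/-) and Cdkn2a(-/-). The mice with PRC2 loss tumors also carried Eed(f/f), an allele of a core PRC2 subunit, and those tumors are labelled Eed(-/-). Every mouse was given 0.4 mg of tamoxifen, dated by the labels to day 0 to 3 of postnatal life. Plp-CreERT is a tamoxifen-inducible recombinase driven in Schwann lineage cells, so other cells of a tumor keep PRC2. The age and sex of the mice are not given in the labels. PRC2 loss tumor 1 is labelled with a right paraspinal nerve and tumors 2 and 3 with the left and right sciatic nerves under the same animal code. No site is given for the wildtype tumors. Wildtype tumors 1 and 2 share a code, and so do 3 and 4. The tumors thus carry 3 wildtype and 2 PRC2 loss animal codes, and p-values over tumors are too small if a code is a mouse.

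Homeobox genes encode transcription factors that bind DNA through a homeodomain, whose last helix lies in the major groove. Alx1 and Alx4 act in craniofacial and limb bud mesenchyme, Prrx1 and Prrx2 mark early limb and facial mesenchyme, Pitx1 specifies hindlimb identity and Shox2 supports the growth of the proximal limb skeleton and the cardiac pacemaker region. Barx1 is expressed in molar-forming jaw mesenchyme and in stomach mesenchyme, and Barx2 in epithelia and in developing muscle and cartilage. PRC2 methylates histone H3 at lysine 27 and holds many developmental transcription factor genes silent in cells where they are not used.

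The coding sequence of all 8 genes held the homeobox motif TGGTNNNANAANNGNNGN in frame, searched on the coding strand only. It was found in 187 of 21562 mouse genes with a coding sequence in GENCODE release M21 (0.867%). The motif lies in the codons of the DNA-contacting helix. The sequences below show how alike the paralogs are in the bases that encode the site that reads DNA. They are given because Barx1 and Barx2 changed in opposite directions and Alx1 and Alx4 by different amounts. Each line gives 51 bases of the coding sequence, 5′ to 3′, with the 18 bases of the motif in capitals.
Barx1: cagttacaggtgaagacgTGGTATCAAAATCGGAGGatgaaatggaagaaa
Barx2: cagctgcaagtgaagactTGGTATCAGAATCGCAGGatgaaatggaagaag
Alx1: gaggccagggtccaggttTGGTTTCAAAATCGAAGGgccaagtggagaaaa
Alx4: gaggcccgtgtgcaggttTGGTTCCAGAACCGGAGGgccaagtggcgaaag
Prrx1: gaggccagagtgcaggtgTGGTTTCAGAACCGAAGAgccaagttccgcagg
Prrx2: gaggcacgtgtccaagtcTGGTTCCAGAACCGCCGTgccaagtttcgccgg
Pitx1: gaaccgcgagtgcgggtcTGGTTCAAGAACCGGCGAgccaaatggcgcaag
Shox2: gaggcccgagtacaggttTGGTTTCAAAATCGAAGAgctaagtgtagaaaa
Barx1 and Barx2 shared 44 of the 51 bases, Alx1 and Alx4 42, and Prrx1 and Prrx2 39. Alx1 and Shox2, of different families, shared 45. These counts include base changes that leave the amino acid the same. Read as codons, each paralog pair encodes the same amino acids over the stretch, whereas Alx1 and Shox2 do not. At the level of sequencing reads the genes are distinct: no 50-base word of any transcript of one of the 8 genes was found in a transcript of another.

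The value used throughout is the deposited quantile-normalized log2 gene count, in which 0 is the lowest possible value and sequencing depth is unknown. Tumor medians lay between 8.46 and 8.47. Between 2686 and 3372 genes were listed at 0 in a wildtype tumor and between 1822 and 2113 in a PRC2 loss tumor. Eed, which the PRC2 loss genotype targets, was 10.17 to 10.33 in wildtype and 8.76 to 8.96 in PRC2 loss, so the groups did not overlap. Nf1 lay between 10.81 and 11.45 over all 8 tumors. Cdkn2a lay between 7.43 and 8.17 in wildtype, while PRC2 loss tumors 1 and 2 had 10.58 and 11.004 and PRC2 loss tumor 3 only 5.67, apart from the rest of its group. Wildtype tumors 1 and 2 stood apart from the other wildtype tumors in skeletal muscle markers, whose mean over 8 genes was 10.93 and 10.40 against 3.03, 4.72 and 3.70 in wildtype tumors 3 to 5. Their mean over 8 Schwann cell markers was 10.41 and 10.84 against 8.44, 8.35 and 7.37. In bulk tumors a smaller share of cells that express a gene and less RNA per cell cannot be told apart.

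Of the 8 genes, 5 rose in PRC2 loss tumors (Barx1, Alx1, Pitx1, Alx4 and Shox2), 1 fell (Barx2) and 2 did not pass the test (Prrx1 and Prrx2). The test was a limma linear model over all genes with Benjamini-Hochberg adjustment, and genes with an adjusted p below 0.05 were called. Over all genes 35.7% were called, 16% as higher and 19.6% as lower. The groups did not overlap for 6 of the 8 genes, against 38.3% of all genes (16.9% higher and 21.4% lower in PRC2 loss). The median log2 difference was 3.73 for the 8 genes and -0.12 for all genes. Among 2890 genes listed at 0 in 3 or more wildtype tumors, as Barx1, Alx1 and Pitx1 were, 18.3% were called as higher.

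**Figure D1:**
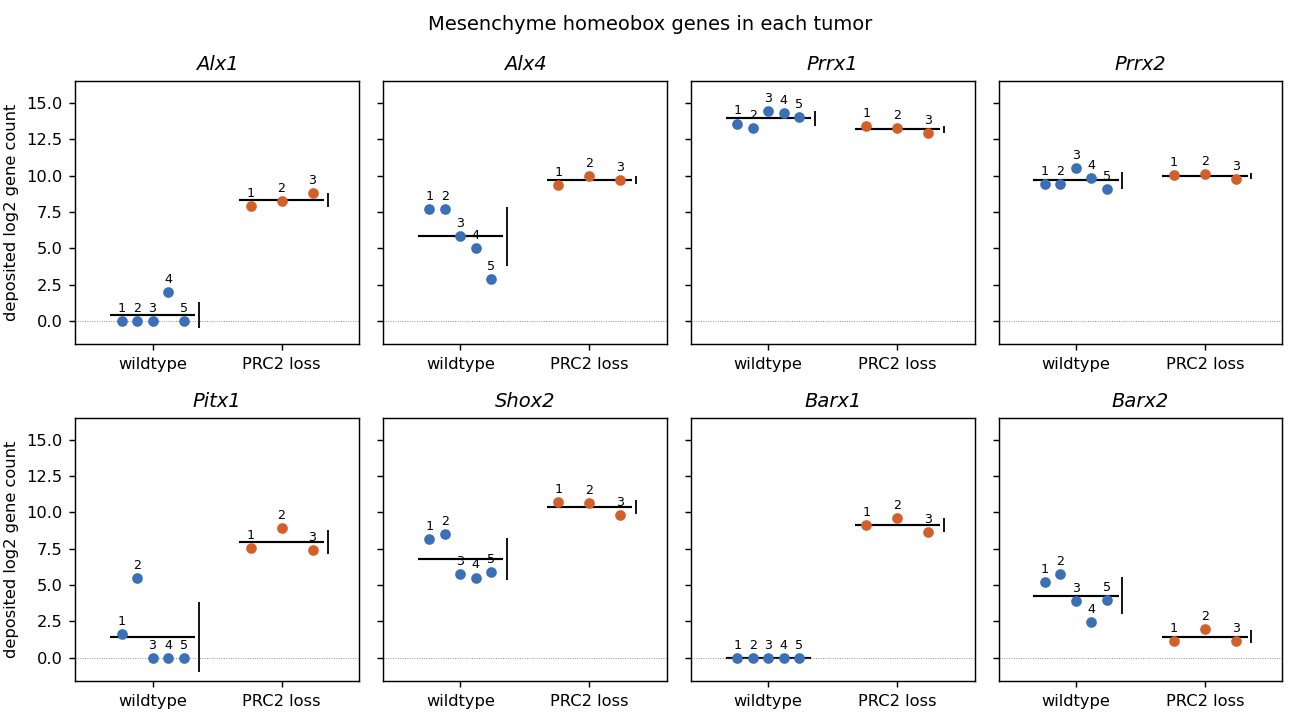
Deposited log2 gene counts (vertical axis) of the 8 homeobox genes in 5 wildtype (blue) and 3 PRC2 loss (orange) tumors, with the tumor's replicate number above its point, the group mean as a horizontal line and its SD as a vertical line. Barx1 and Alx1 sit at or near 0 in wildtype and between 7.89 and 9.58 in PRC2 loss, whereas Prrx1 stays above 12.9 in every tumor.

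**Figure D2:**
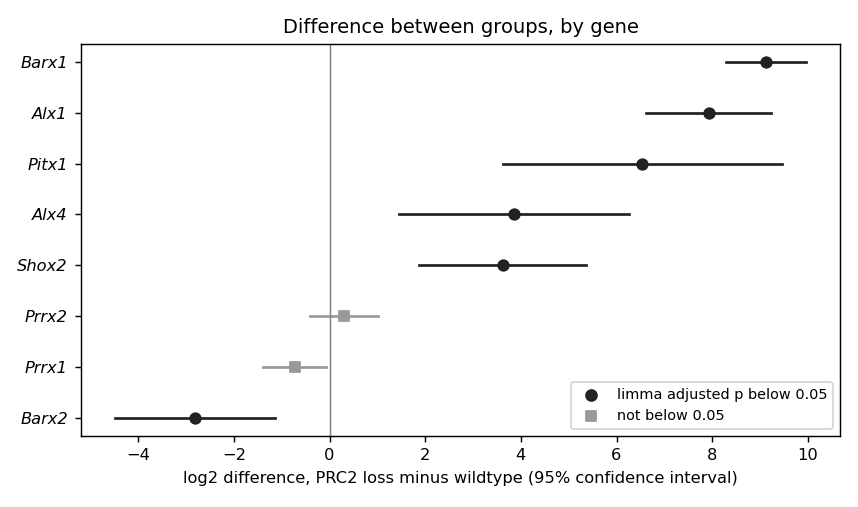
Log2 difference between PRC2 loss and wildtype for each gene (horizontal axis), with the 95% confidence interval from limma; dark circles mark genes with an adjusted p below 0.05 and grey squares those without. The intervals of 5 genes lie above 0, those of Barx2 and Prrx1 lie below 0, of which only Barx2 passed after adjustment, and the interval of Prrx2 spans 0.

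Barx1 was listed at 0 in all 5 wildtype tumors. In PRC2 loss tumors 1, 2 and 3 it stood at 9.13, 9.58 and 8.66, above the median of all gene means (8.43). The log2 difference was 9.13 (95% interval 8.29 to 9.96; limma adjusted p = 1.85e-05), and the exact permutation p, two-sided and with 56 possible splits, was 0.0179, the smallest this design allows. No fold change is given against a group listed at 0. Its paralog Barx2 went the other way. Barx2 values were 5.19, 5.72, 3.93, 2.45 and 3.94 in wildtype tumors 1 to 5 and 1.17, 1.96 and 1.18 in PRC2 loss tumors 1 to 3. Every PRC2 loss tumor lay under the lowest wildtype tumor, by a gap of 0.49, and the PRC2 loss values were close to the floor of the table. The log2 difference was -2.81 (SE 0.73), a 7.0-fold lower level (limma adjusted p = 0.0187; two-sided exact permutation p = 0.0357). The Barx2 call was lost without PRC2 loss tumor 1 or 3 (limma adjusted p = 0.0652 and 0.0657), with tumors averaged by animal code (0.0609) and with 16 added on the linear scale (0.062), which brought the log2 difference to -1.0.

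Alx1 was listed at 0 in wildtype tumors 1, 2, 3 and 5 and at 1.97 in wildtype tumor 4. In the PRC2 loss tumors it stood at 7.89, 8.26 and 8.81. The gap between the highest wildtype and the lowest PRC2 loss tumor was 5.92, and the log2 difference was 7.93 (95% interval 6.62 to 9.24; limma adjusted p = 0.000114). The exact permutation p was again the smallest possible, 0.0179 (two-sided). Of the 5888 50-base words of Alx1 transcripts, 194 (3.29%) also occur in Gm17028, so reads there cannot be assigned to 1 gene. Alx4 was already expressed in wildtype tumors, but unevenly: 7.70, 7.72, 5.83, 5.04 and 2.85 in tumors 1 to 5. It was 9.38, 9.97 and 9.69 in PRC2 loss. All PRC2 loss tumors exceeded all wildtype tumors, and their range of 0.59 was narrower than the wildtype range of 4.87. Alx4 was 14.4-fold higher, a log2 difference of 3.85 (SE 1.05; limma adjusted p = 0.0222; two-sided exact permutation p = 0.0357). This call was lost when any 1 PRC2 loss tumor was left out (limma adjusted p = 0.0614, 0.0766 and 0.0693 without tumors 1, 2 and 3) and with tumors averaged by animal code (0.0895).

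Pitx1 was listed at 0 in wildtype tumors 3, 4 and 5, at 1.63 in tumor 1 and at 5.48 in tumor 2. In PRC2 loss it was 7.56 in the paraspinal tumor and 8.92 and 7.41 in the sciatic tumors, so the paraspinal tumor lay between the others. The log2 difference was 6.54 (95% interval 3.62 to 9.47; limma adjusted p = 0.00569; two-sided exact permutation p = 0.0179). Of the 2606 50-base words of Pitx1 transcripts, 177 (6.79%) also occur in Gm28760 or Gm47071, which leaves those reads unassigned. Its relative Pitx3, a lens and midbrain factor named here after its value was seen, stayed at or under 1.18 in all 8 tumors. Pitx3 was not called (limma adjusted p = 0.626). It does not stand for its list: of 6 family relatives measured, 3 were called as higher and 3 were not called. Over all genes 16% were called as higher. Tbx4, the hindlimb T-box gene that Pitx1 activates in the limb bud, rose from 2.55 ± 1.03 (SD, n = 5) to 9.39 ± 0.34 (SD, n = 3; limma adjusted p = 0.000281). Hoxc11, a posterior Hox gene of the hindlimb field, rose from 0.69 ± 1.55 (SD, n = 5), where 4 tumors were at 0, to 5.06 ± 0.22 (SD, n = 3; limma adjusted p = 0.005). The forelimb T-box gene Tbx5, named here after its value was seen, rose too, from 2.77 ± 1.92 (SD, n = 5) to 7.37 ± 0.52 (SD, n = 3; limma adjusted p = 0.0105). Because wildtype sites are not labelled, site and PRC2 status cannot be told apart for these regional genes.

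Shox2 was expressed in every tumor. Wildtype tumors 1 and 2 had 8.13 and 8.54, and wildtype tumors 3, 4 and 5 had 5.76, 5.51 and 5.86. PRC2 loss tumors had 10.67, 10.63 and 9.84, all above the wildtype range with a gap of 1.30. Shox2 was 12.3-fold higher, a log2 difference of 3.62 (SE 0.77; limma adjusted p = 0.00783; two-sided exact permutation p = 0.0357). Hcn4, the pacemaker channel gene of the sinoatrial node, a tissue that needs Shox2, was 24.6-fold higher (limma adjusted p = 0.00688). Isl1 and Nkx2-5, also tied to the homeobox genes in developmental work and named after their values were seen, were not called. Their log2 differences were 4.74 and 2.41 (limma adjusted p = 0.0775 and 0.0951). Shox2 overlaps Rsrc1, a splicing factor gene on the opposite strand, and 104 of the 3304 50-base words of Shox2 transcripts (3.15%) also occur there. Strand use is not given in the sources used here, so reads over that stretch cannot be assigned. Rsrc1 rose by a log2 difference of 0.46, from 10.35 ± 0.20 (SD, n = 5) to 10.81 ± 0.16 (SD, n = 3; limma adjusted p = 0.0375).

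Prrx1 and Prrx2 were high in both groups. Prrx1 values were 13.58, 13.27, 14.46, 14.32 and 14.00 in wildtype tumors 1 to 5 and 13.41, 13.24 and 12.93 in PRC2 loss tumors 1 to 3. The groups overlapped, with PRC2 loss tumor 1 above wildtype tumor 2. The log2 difference was -0.73 (95% interval -1.38 to -0.08, unadjusted; limma adjusted p = 0.0769; two-sided exact permutation p = 0.0714), so a fall did not pass the test over all genes. It did pass without wildtype tumor 2 (log2 difference -0.89, limma adjusted p = 0.0222), without wildtype tumors 1 and 2 (-1.06, 0.0072) and with array weights (-0.80, 0.0272). Centring tumors on housekeeping genes reduced it to -0.16 (limma adjusted p = 0.672). Prrx2 values were 9.44, 9.43, 10.55, 9.86 and 9.05 in wildtype and 10.06, 10.08 and 9.74 in PRC2 loss, inside the wildtype range. The log2 difference was 0.30 (95% interval -0.42 to 1.01; limma adjusted p = 0.499; two-sided exact permutation p = 0.429). Centring on housekeeping genes raised the Prrx2 difference to 0.86 (SE 0.32; limma adjusted p = 0.0566).

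The change of each paralog was compared with that of its partner by the difference between the genes within each tumor, in which gene length cancels. Barx1 minus Barx2 lay between -5.72 and -2.45 in wildtype and between 7.49 and 7.96 in PRC2 loss. Alx1 minus Alx4 lay between -7.72 and -2.85 in wildtype and between -1.71 and -0.88 in PRC2 loss. Prrx1 minus Prrx2 lay between 3.84 and 4.96 in wildtype and between 3.16 and 3.35 in PRC2 loss. None of these ranges overlapped between the groups. For Barx this was fixed in advance, since Barx1 rose and Barx2 fell, each without overlap. The Barx p-values below thus add nothing to the results of the single genes. The shifts were 11.93, 4.08 and -1.03 log2 units, with two-sided exact permutation p = 0.0179, 0.0357 and 0.0179, or 0.0268, 0.0357 and 0.0268 adjusted over the 3 pairs. The lead of Prrx1 over Prrx2 was thus smaller in PRC2 loss, although neither gene passed the test alone. The adjusted p of 0.0268 for the Prrx pair (exact permutation) is lowered by the Barx pair, whose fixed outcome counts among the 3 pairs. The value for Alx1 minus Alx4 rests on the floor at 0 for Alx1 in wildtype, and with 16 added on the linear scale the shift was 0.95 (exact permutation, adjusted p = 0.321). None of the 3 pairs passed with any 1 PRC2 loss tumor left out (adjusted p between 0.0714 and 0.0952, exact permutation, where the smallest unadjusted p is 0.0476), and the Alx pair did not pass with any 1 wildtype tumor left out either. The Prrx and Barx pairs also missed the threshold without wildtype tumor 3 (exact permutation, adjusted p = 0.0857 for each).

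**Figure D3:**
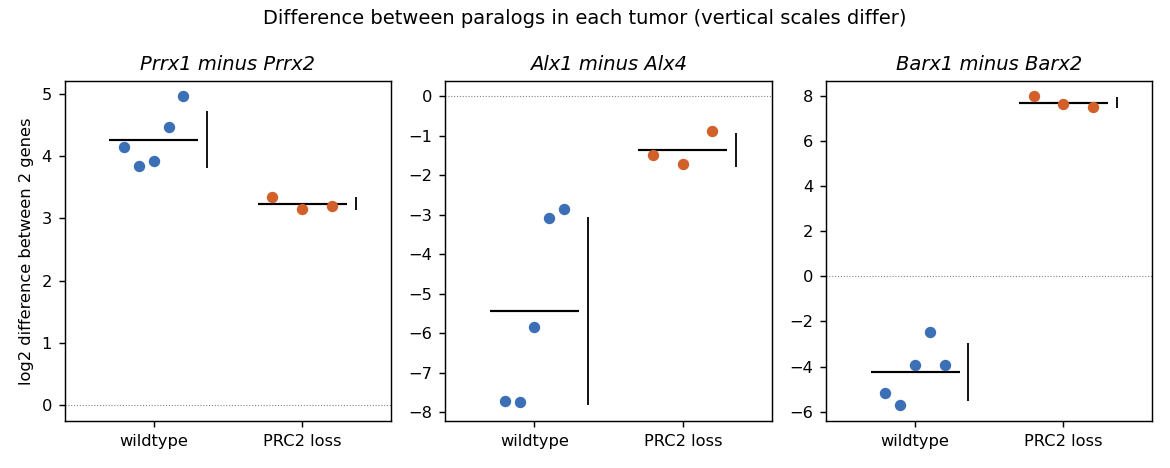
Log2 difference between the 2 genes of each paralog pair in every tumor (vertical axis, scales differ between panels), for wildtype (blue) and PRC2 loss (orange), with means as horizontal and SDs as vertical lines. The Barx difference crosses from below 0 to above 7, and the Prrx difference shifts down by 1.03.

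Levels of different genes can be compared only per length, here per kilobase of the union of annotated exons. On the log2 per-kilobase scale the order in wildtype tumors was Prrx1 (10.46), Prrx2 (8.69), Shox2 (5.03), Barx2 (3.27), Alx4 (3.01) and then Pitx1 (0.01). Pitx1 was listed at 0 in 3 of 5 wildtype tumors, so its value is a mean that includes the floor. Barx1 was listed at 0 in every wildtype tumor and Alx1 in 4 of 5. In PRC2 loss tumors the order was Prrx1 (9.73), Prrx2 (8.99), Shox2 (8.65), Barx1 (8.64), Alx4 (6.86), Pitx1 (6.55), Alx1 (5.79) and Barx2 (0.46). Differences between neighbours in the order that are smaller than the tumor SDs, such as Shox2 and Barx1 in PRC2 loss (SD 0.47 and 0.46), do not set an order.

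Within the wildtype group the genes did not vary alike. Alx4, Shox2, Pitx1 and Barx2 were higher in both tumors 1 and 2, which share an animal code, than in any of tumors 3, 4 and 5, by at least 1.88, 2.27, 1.63 and 1.25 log2 units. Prrx1 was lower in tumors 1 and 2 than in the other 3. Muscle and Schwann cell markers were also higher in those tumors, as given above. So were epithelial markers (means of 8.18 and 6.14 against 4.67, 5.74 and 5.54) and tendon, pericyte, endothelial and macrophage markers. The part of these markers in the differences was not tested. Leaving both tumors out gave larger differences for Shox2 (4.67), Alx4 (5.10) and Pitx1 (7.96) and a smaller one for Barx2 (-2.0), all still called. Among the PRC2 loss tumors Pitx1 had a range of 1.51 log2 units, and each of the other 7 genes a range below 1.

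Promoter sequences of 4 of the genes (Barx1, Prrx1, Prrx2 and Shox2) were matched in RefSeq on GRCm38.p6. They are shown for Barx1, Shox2 and Prrx1. CpG-rich promoters are known as typical PRC2 targets, but a link between CpG content and the changes of these genes was not tested. Each is the part of the 250 bases before the RefSeq start that no annotated exon of the gene covers, 5′ to 3′ on the gene's strand, with each CpG in capitals. The Barx1 window is chr13:48662786-48662997 on the plus strand, the Shox2 window chr3:66981772-66982021 on the minus strand and the Prrx1 window chr1:163313711-163313900 on the minus strand.
Barx1: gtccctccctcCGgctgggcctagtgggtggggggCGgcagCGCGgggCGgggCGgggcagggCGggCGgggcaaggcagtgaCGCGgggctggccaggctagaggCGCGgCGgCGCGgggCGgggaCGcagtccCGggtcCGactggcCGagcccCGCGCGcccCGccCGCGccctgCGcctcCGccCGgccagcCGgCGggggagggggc
Shox2: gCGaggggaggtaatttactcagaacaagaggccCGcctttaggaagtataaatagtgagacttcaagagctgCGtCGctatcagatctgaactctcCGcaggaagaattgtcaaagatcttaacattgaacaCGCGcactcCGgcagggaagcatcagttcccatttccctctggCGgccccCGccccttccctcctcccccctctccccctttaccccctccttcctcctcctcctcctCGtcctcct
Prrx1: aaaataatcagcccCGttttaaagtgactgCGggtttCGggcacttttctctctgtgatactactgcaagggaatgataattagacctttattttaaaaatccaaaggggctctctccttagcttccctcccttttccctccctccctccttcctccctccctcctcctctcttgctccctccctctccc
Over the full 250 bases Barx1 had 40 CpG dinucleotides, Prrx2 21, Shox2 11 and Prrx1 4, against a median of 6 over 32851 promoters. The Prrx2 window, chr2:30845117-30845366, begins inside an annotated exon, downstream of the annotated gene start at 30834972. It is therefore not printed, and its CpG count is not that of sequence before the gene. Barx1 had more CpG than 98.7% of these promoters, Prrx2 than 83.7%, Shox2 than 64.4% and Prrx1 than 37.8%. The homeodomain core TAAT, on either strand, was present in the Shox2 and Prrx1 windows and in 54.9% of all promoters. The paired-class site, TAAT and ATTA with 3 bases between them, which contains that core, was in none of the 4 windows and in 0.463% of all promoters, both strands searched. TATAAA was in the Shox2 window and in 12.4% of all promoters.

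The genes around the homeobox genes were examined because PRC2 domains often span more than a single gene. GENCODE release M21 on mm10 places Barx1 on chromosome 13 from 48662998 to 48666507, Barx2 on chromosome 9 from 31846044 to 31913462 and Alx1 on chromosome 10 from 102998707 to 103030215. Alx4 lies on chromosome 2 from 93642384 to 93681339, Pitx1 on chromosome 13 from 55825051 to 55836192 and Shox2 on chromosome 3 from 66971727 to 66981771. Prrx1 lies on chromosome 1 from 163245119 to 163313710 and Prrx2 on chromosome 2 from 30834972 to 30881251. Within 200 kb of their starts lay 22 other tested genes, around 6 of the 8 genes. Of these, 3 rose, 3 fell and 16 did not pass the test, 27.3% called against 35.7% of all genes, with a median log2 difference of -0.0039. Ptpdc1, a phosphatase gene at -37.3 kb from the start of Barx1 (negative distances are upstream), rose from 10.44 ± 0.50 (SD, n = 5) to 11.86 ± 0.06 (SD, n = 3; limma adjusted p = 0.00459). Catsper3, a sperm calcium channel gene 51.6 kb from Pitx1, had 1.69 ± 1.18 (SD, n = 5) and 2.66 ± 1.29 (SD, n = 3; limma adjusted p = 0.376). Ext2, a heparan sulfate synthesis gene, overlaps Alx4 on the opposite strand, although its start is 180.2 kb from that of Alx4. No 50-base word of an Alx4 transcript was found in an Ext2 transcript. Ext2 had 11.60 in both groups (limma adjusted p = 0.989). The other nearest neighbours were Gorab beside Prrx1, which fell (log2 difference -0.49; limma adjusted p = 0.0457), and Cd82 beside Alx4 and Asb6 and Ptges beside Prrx2, which were not called (limma adjusted p = 0.0728, 0.101 and 0.217).

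**Figure D4:**
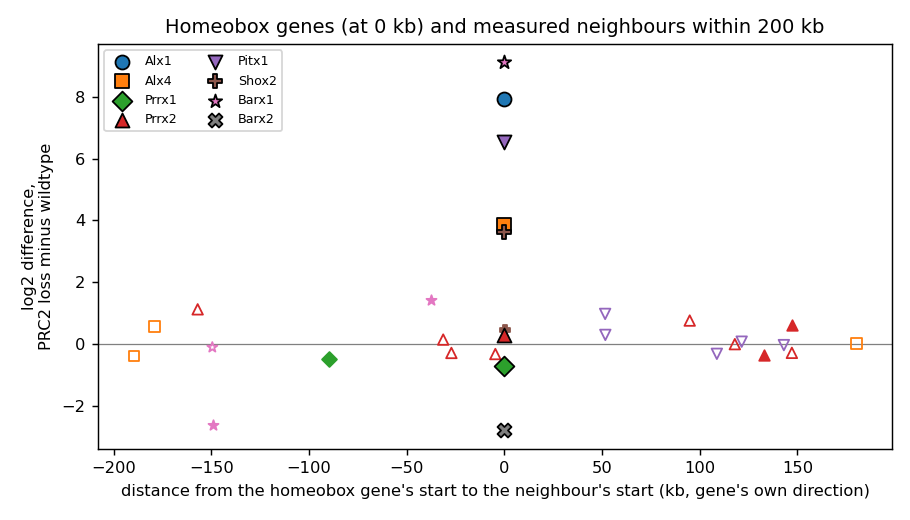
Log2 difference between PRC2 loss and wildtype (vertical axis) against distance from the start of the homeobox gene (horizontal axis, kb, in that gene's direction); outlined symbols at 0 kb are the 8 homeobox genes, and smaller symbols of the same shape and color their neighbours, filled where the adjusted p is below 0.05. Every neighbour lies between -2.62 and 1.42, while 5 homeobox genes lie above 3.6.

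Other transcription factors of limb and facial mesenchyme were also mostly higher. Of 57 such genes 31 rose, 5 fell and 21 did not pass the test, with a median log2 difference of 2.49 against -0.12 for all genes. The share called was 63.2%, against 35.7% of all genes (16% higher and 19.6% lower). Hoxd13, Hoxa13, Foxd1 and Dlx6 had the smallest p-values. Hoxd13 and Hoxa13, which pattern the distal limb, had log2 differences of 10.61 and 5.63 (limma adjusted p = 4.58e-05 and 0.000126). Hoxd13 was listed at 0 in 3 wildtype tumors and Hoxa13 in 4, so these differences are measured from near the floor. Foxd1, a factor of facial and kidney mesenchyme, rose from 1.31 ± 0.89 (SD, n = 5) to 10.62 ± 0.53 (SD, n = 3; limma adjusted p = 8.03e-05). Dlx6, a lower jaw factor, was at 0 in each wildtype tumor and at a mean of 4.09 ± 0.56 (SD, n = 3) in PRC2 loss (limma adjusted p = 0.000114). The 5 that fell, named after their values were seen, were Dlx2, Tfap2a, Dlx1 and Lhx6, which act in cranial neural crest, and Twist1, a mesenchymal basic helix-loop-helix factor. Tfap2a went from 10.59 ± 0.92 (SD, n = 5) to 6.79 ± 0.06 (SD, n = 3; limma adjusted p = 0.000915), and Dlx2 from 7.32 ± 1.05 (SD, n = 5) to 3.41 ± 0.83 (SD, n = 3; limma adjusted p = 0.00345). Without wildtype tumors 1 and 2 the counts were 32 higher and 9 lower.

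**Figure D5:**
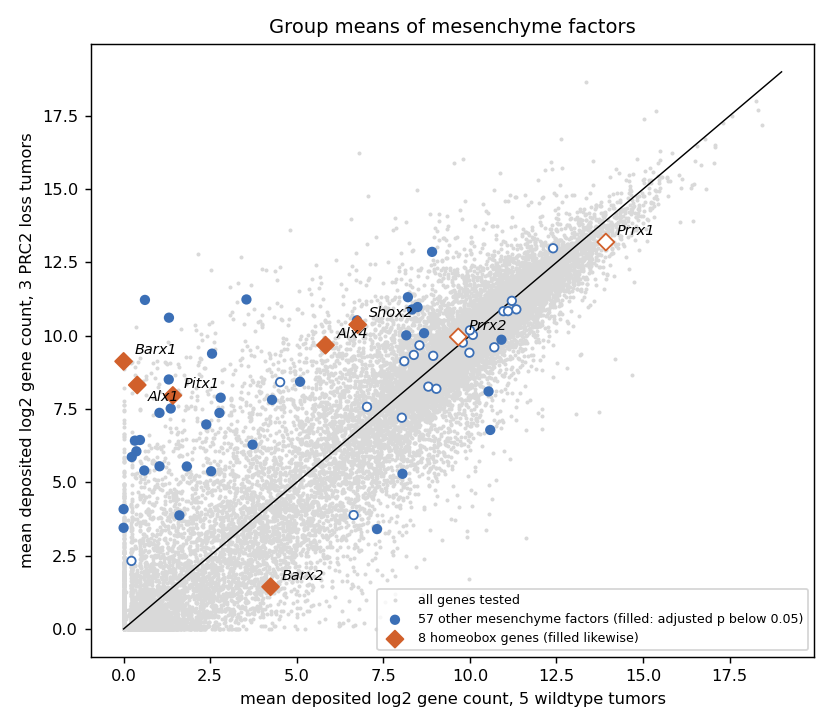
Mean log2 gene count in 3 PRC2 loss tumors (vertical axis) against 5 wildtype tumors (horizontal axis) for all genes tested (grey), 57 other mesenchyme factors (blue circles) and the 8 homeobox genes (orange diamonds), filled where the adjusted p is below 0.05; the line marks equal means. Of the blue circles 31 filled ones lie above the line and 5 below it, and Barx1, Alx1 and Pitx1 lie at the left edge.

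Of 18 genes tied to the 8 in developmental work, 8 rose, 3 fell and 7 did not pass the test (median log2 difference 2.09). That is 61.1% called, against 35.7% of all genes (16% higher and 19.6% lower). Besides Tbx4, Hcn4 and Hoxc11, the rises included Sfrp1, a secreted Wnt inhibitor downstream of Barx1 in stomach mesenchyme, named after its value was seen. Its relative Sfrp2, named likewise, had a log2 difference of 0.91 and was not called (limma adjusted p = 0.291). The 3 that fell were Has2 and, named afterwards like Sfrp1, Tnc and Postn, all of which encode matrix proteins or a matrix enzyme. Has2, a hyaluronan synthase, fell from 10.27 ± 0.68 (SD, n = 5) to 7.24 ± 0.77 (SD, n = 3; limma adjusted p = 0.00184). Tnc, the tenascin-C gene that Prrx1 can activate, had a log2 difference of -2.48 (limma adjusted p = 0.0213), and Postn, which encodes periostin, one of -1.82 (limma adjusted p = 0.016).

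Markers of the cell types a nerve tumor can hold were read beside these genes. The counts below stand against 16% of all genes called as higher and 19.6% as lower, and the marker lists are short. Of 8 fibroblast markers 2 rose and none fell, and the range of their summed level, on the log2 scale, was 19.01 to 19.94 in wildtype and 19.34 to 20.10 in PRC2 loss. Pdgfra, Col1a1 and Col1a2, which define mesenchymal fibroblasts, were not called (adjusted p from limma 0.601, 0.368 and 0.923). The rising pair was Dcn and Lum, matrix proteoglycan genes named here only once their values were known, with log2 differences of 2.28 and 3.58 and no overlap between the groups (limma adjusted p = 0.0136 and 0.0185). Schwann cell markers rose for 7 of 8 genes, with summed levels of 11.02 to 14.51 in wildtype and 17.09 to 18.03 in PRC2 loss. Perineurial markers rose for 4 of 4, from 11.72 to 13.32 in wildtype to 14.93 to 15.44 in PRC2 loss. Endothelial markers rose for 4 of 5 (12.71 to 13.55 and 14.65 to 15.32). Pericyte and smooth muscle markers rose for 2 of 5 (13.35 to 15.09 and 15.21 to 17.61). Chondrocyte markers rose for 3 of 7, with summed levels of 10.47 to 12.70 in wildtype and 12.89 to 13.65 in PRC2 loss. Col2a1, the main cartilage collagen, was 22.4-fold higher (limma adjusted p = 0.0345), and Hapln1 and Col9a1, named after their values were seen, had log2 differences of 3.23 and 2.74 (limma adjusted p = 0.00673 and 0.0458). Acan, the main cartilage proteoglycan, was not called (limma adjusted p = 0.577). Osteoblast markers rose for 1 of 6 and fell for 1 of 6 (11.09 to 13.70 and 10.89 to 11.32), and tendon markers rose for 2 of 6 and fell for 1 (12.08 to 14.72 and 14.29 to 15.31). Macrophage markers fell for 3 of 4 (14.17 to 15.15 and 13.35 to 13.72), and epithelial markers, relevant to Barx2, fell for 2 of 4 and rose for 1 (8.39 to 10.30 and 9.78 to 10.23, with a median log2 difference of -2.33). None of the 8 skeletal muscle markers (7.48 to 16.02 and 6.74 to 12.40) or 5 adipocyte markers (7.95 to 12.93 and 7.48 to 12.56) was called. No marker of these lists was at 0 in all tumors of either group. The part of these cell types in the changes of the homeobox genes was not tested.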

How the data were processed

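Poly-A RNA sequencing of 8 mouse tumors was analysed from 1 table, in which the authors deposited log2 gene counts after quantile normalization; the submitters' processing notes name Trim Galore, STAR 2.6, Partek 7.0 and mm10. Annotation, counting, strand use and the log offset: not given in the sources used here. As quantile normalization removes library totals, depth is unknown and no counting interval is given. Columns were matched to tumors by description and tumors grouped by title. Genes with 1 constant value (136) were not tested. The 20807 others were fitted with limma 3.58.1 (R 4.3.3), variances trended on the mean, two-sided, Benjamini-Hochberg adjusted, threshold 0.05. The fit was also run on simulated data with independent tumors and no floor. That run does not cover genes at the floor or tumors that share an animal code. Exact permutation tests took the absolute difference of means over all 56 splits. Named genes were all 8 homeobox genes, up to 4 called genes of each list by smallest p, up to 3 markers of each cell type and the nearest neighbour on each side within 200 kb, plus the genes most alike in pattern (not all are printed). The homeobox genes and lists were chosen with earlier results of these data known. Alternatives were 1 or 16 added on the linear scale, housekeeping or upper-gene median centring, animal codes averaged or as a random block, genes with a mean below 1 left out, other variance priors, array weights, the replicate number as a block, and each tumor left out; the fit without wildtype tumors 1 and 2, and the count of other mesenchyme factors under all settings, were added after seeing the data. The titles call the tumors biological replicates. Some related genes are not reported here.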

Additional observations from a re-analysis of the deposited data

Results flagged for a closer look

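Alx1 in wildtype tumor 4 stood at 1.97, while the other 4 wildtype tumors were listed at 0; this was the only one of 11 sets of wildtype values (8 genes and 3 paralog differences) in which a single tumor lay far from the rest by Dixon's criterion. With the other 4 values tied at the floor of 0, any single value above 0 meets this criterion, so the floor alone sets it off and the chance rate of about 1 group in 20 does not apply. The lowest PRC2 loss tumor was 5.92 log2 units above this value.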

How the results depend on the processing

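Alx1 and Barx1 passed the threshold in all 20 alternatives and Prrx2 in none; no result reversed. Averaging tumors by animal code gave 4226 called genes against 7424, Alx4 4.27, Barx2 -2.82, and paralog shifts of -1.11 (Prrx), 3.62 (Alx) and 11.95 (Barx). With 16 added, Barx2 was -1.0 and the Alx shift 0.95. Array weights gave Prrx1 -0.80. Without wildtype tumors 1 and 2 Prrx1 was -1.06 and the shifts -1.21, 2.56 and 11.13. Leaving out 1 tumor at a time gave 5528 to 7697 called genes, 25 to 31 higher mesenchyme factors, Alx4 3.10 to 4.32, Prrx1 -0.89 to -0.60, Barx2 -3.26 to -2.44, and shifts of -1.13 to -0.85 (Prrx), 3.51 to 4.72 (Alx) and 11.56 to 12.38 (Barx). For the shifts, the smallest exact permutation p is 0.1 with codes averaged and 0.05 without wildtype tumors 1 and 2, so those could not pass; other causes were not tested. Centring on housekeeping genes gave 7454 higher and 1670 lower genes (81.7% higher) against 3337 and 4087 (44.9% higher) and moved the median of all genes from -0.12 to 0.44; 9 of the 15 housekeeping genes were themselves called as lower.

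Replicate numbers do not pair these tumors: deviations of same-numbered tumors correlated at -0.21, 0.15 and -0.09, and not every tumor correlated best with its own number. With the replicate number as a block 1903 genes and 19 higher mesenchyme factors were called, with Alx4 at 2.59, Pitx1 at 5.59 and Shox2 at 2.90 (limma adjusted p = 0.0669, 0.0512 and 0.0512). Over the 3 same-numbered pairs the block gave shifts of -0.73, 5.73 and 12.63, where the smallest p is 0.25. Depth is unknown, so values near 0, such as Barx2 in PRC2 loss, have no counting interval.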

Other observations

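Signals of limb and face outgrowth, which act beside these homeobox factors in the embryo, moved in both directions: of 20 genes 9 rose, 4 fell and 7 did not pass the test, with a median log2 difference of 0.64. Here 65% were called, against 35.7% of all genes (16% higher and 19.6% lower). Shh, the hedgehog ligand of the posterior limb bud, was at 0 in each wildtype tumor and at a mean of 7.48 ± 1.70 (SD, n = 3) in PRC2 loss (limma adjusted p = 0.000253). Ptch1, its receptor and transcriptional target, was 8.75-fold higher (limma adjusted p = 0.000298). Fgf4, a ligand of the limb ectodermal ridge, was likewise listed at 0 in wildtype and averaged 5.21 ± 0.99 (SD, n = 3) in PRC2 loss (limma adjusted p = 0.000186). Bmp7, a bone morphogenetic protein, was 59.3-fold higher (limma adjusted p = 0.00021). The 4 that fell, named after their values were seen, were Grem1, Fgf10, Bmp2 and Ednra.

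Genes were ranked by how closely their deviations followed each homeobox gene over the 8 tumors, as a root mean square difference on the log2 scale. Nearest to Shox2 were Egflam (0.314) and Meox2 (0.324), to Alx4 Lrfn2 (0.448) and Chil1 (0.466), and to Pitx1 Cryaa (0.575) and Kank4 (0.627). Nearest to Prrx1 were Usp42 (0.089) and Bend3 (0.108), and to Barx2 Unc5cl (0.389) and Gm5936 (0.444).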
